A study of Mus musculus with 6 samples.

Results

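A set of 35 regulators of radial glia and intermediate progenitors, the dividing cells that make cortical neurons, was followed in newborn mouse cortex with and without the transcription factor gene Fezf2. The 35 members were chosen by gene symbol from a deposited table of 23016 entries, and each symbol matched 1 entry. Cortex was dissected from 3 wild type pups (Fezf2+/+) and 3 Fezf2 KO pups (Fezf2-/-) at postnatal day 0, all from crosses of Fezf2+/- parents, and each brain gave 1 total RNA library. Replicates 1 and 2 of both genotypes came from litter m1 and replicate 3 of both from litter m2. The labels name no promoter or cell type that would limit the loss of Fezf2, and the sources used here do not give the part of the gene that was removed.

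Radial glia line the ventricle, carry a fibre to the surface of the brain, and are kept in the progenitor state by Sox factors and by Notch signalling, in which a ligand on one cell activates a Notch receptor on its neighbour and, through Rbpj, the Hes repressors. Cells that leave this state switch on proneural genes such as Neurog2, become intermediate progenitors that express Eomes and Insm1, and then become young neurons. Fezf2 is itself expressed in cortical radial glia as well as in deep-layer neurons. At birth neurogenesis in the mouse cortex is ending and gliogenesis is beginning, and several of the genes are shared with astrocyte and oligodendrocyte precursors.

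Levels are normalised read counts, that is, read counts of a gene divided by 1 size factor for its library. The recovered reads numbered 44978380 to 52872577 per library. Fezf2 stood at 5030, 5928 and 5396 in wild type 1 to 3 and at 1989, 1377 and 1533 in Fezf2 KO 1 to 3 (log2 change -1.75, 95% interval -2.05 to -1.46, limma adjusted p = 0.000832). All Fezf2 KO libraries were below all wild type libraries, as the labels have it, and reads of the gene remained at 0.30 of the wild type mean. Of 7 markers of cortical neurons 0 were at 0 in any library and 0 passed in limma. Bcl11b, a factor of deep-layer and striatal neurons, had 14713, 12618 and 11760 in wild type 1 to 3 against 5534, 9755 and 7116 in Fezf2 KO 1 to 3 (log2 change -0.84, limma adjusted p = 0.114). Fezf2 KO 1 stood apart in choroid plexus transcripts and wild type 1 in meningeal transcripts, as given below. Striatal transcripts summed lower in each Fezf2 KO library, by the least in Fezf2 KO 2.

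No member passed the test for a change with genotype. Of the 35, 34 passed the filter on low values and 0 passed the test at an adjusted p under 0.05 by limma, by edgeR or by DESeq2. Over all 17557 genes tested, limma called 0.712%, edgeR 0.689% and DESeq2 2.3%. At an unadjusted p under 0.05 each tool had 1 member, Nhlh1, where limma had 9.03%, edgeR 9.1% and DESeq2 8.14% of all genes tested. A log2 change is the mean of log2(normalised count + 1) in Fezf2 KO minus that in wild type. Its median over the 34 members was 0.06, and it was 0.00 over all genes tested. The median size of the change, whatever its sign, was 0.10 for the members and 0.08 for all genes tested. The change was under 0.2 in size for 32 of the 34, the exceptions being Nhlh1 and Mfap4.

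The intervals bound how large a change these libraries allow. For 30 of 34 members the 95% interval of the change in limma lay within 1.5-fold of no change, as it did for 74.4% of all genes tested. The 4 others were Nhlh1, Eomes, Insm1 and Mfap4. The change was above 0 for 26 members and below 0 for 8, while 51% of all genes tested were above 0. The sign changed for 18 members under at least 1 of the alternative settings listed at the end, and the members are not independent of one another. In 3 members (Nhlh1, Fgfr2 and Elavl2) every Fezf2 KO library lay above every wild type library, as in 7.6% of all genes tested. The reverse held for 0 members and for 6.85% of all genes tested. In whole cortex, fewer cells of a type and less RNA per cell cannot be told apart.

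**Figure D1:**
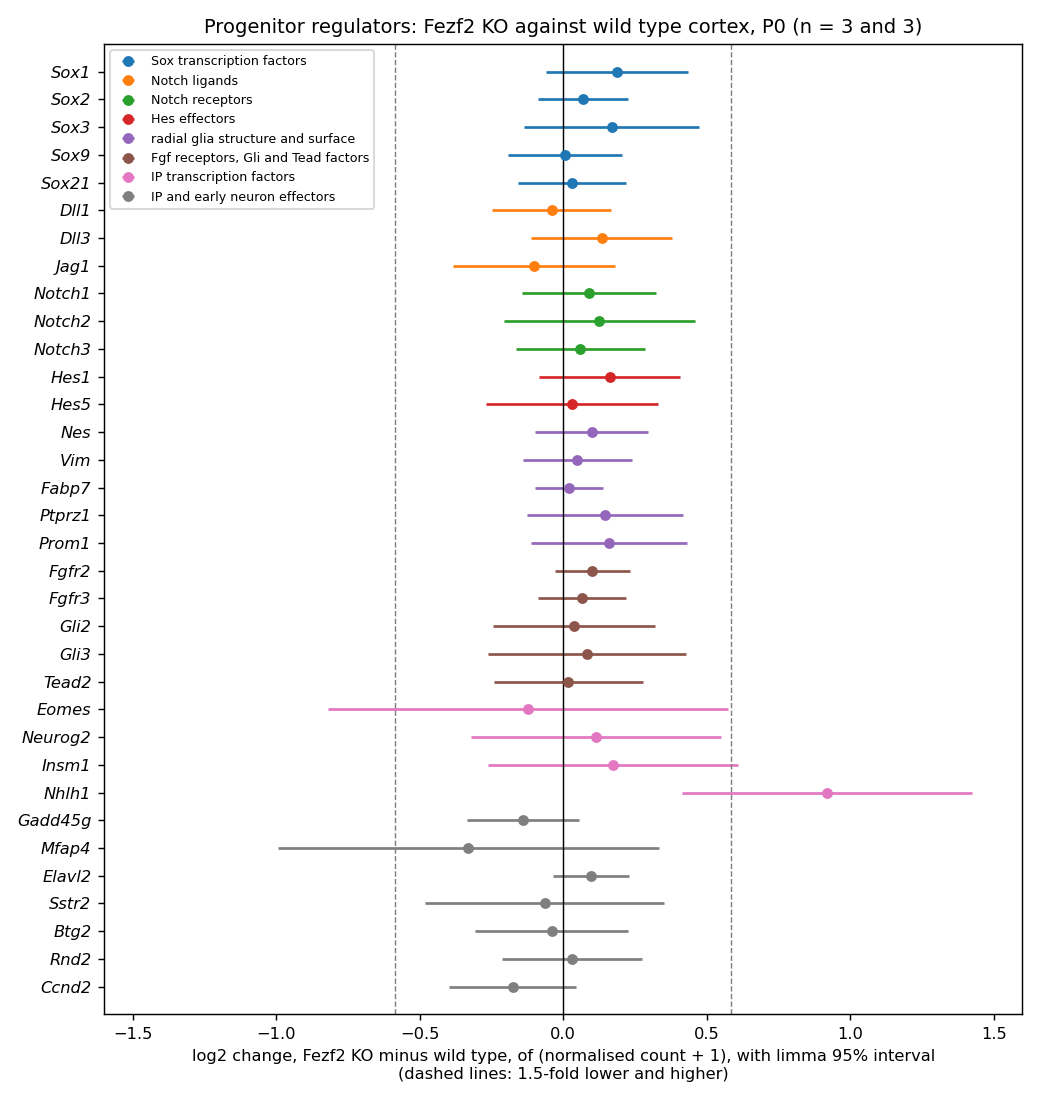
Log2 change of each of the 34 members tested (Fezf2 KO minus wild type, horizontal axis) with its 95% interval from limma, coloured by role; IP stands for intermediate progenitor. All intervals but that of Nhlh1 cross 0, and 30 lie inside the dashed lines at 1.5-fold.

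Set per kb of exon, the members spanned a wide range of levels. The most abundant was Vim, the intermediate filament vimentin of radial fibres, with a wild type mean of 3645 normalised reads per kb. Next came Fabp7, the brain fatty acid binding protein of radial glia, with 3220 per kb, and Rnd2, a gene of migrating young neurons, with 3053 per kb. The transcription factor Sox2 had 2194 per kb, and Hes5, a main Notch effector of radial glia, had 1631 per kb. At the low end Gli3 had 62.1 per kb, Nhlh1 14.95 per kb and Neurog1 1.21 per kb. For 27 of the 34 pairs of neighbours in this order the ranges over the 6 libraries overlapped, and 7 pairs were separate. The exon lengths come from an annotation of GRCm38, whereas the submitters' processing notes name mm9, so the order is approximate.

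**Figure D2:**
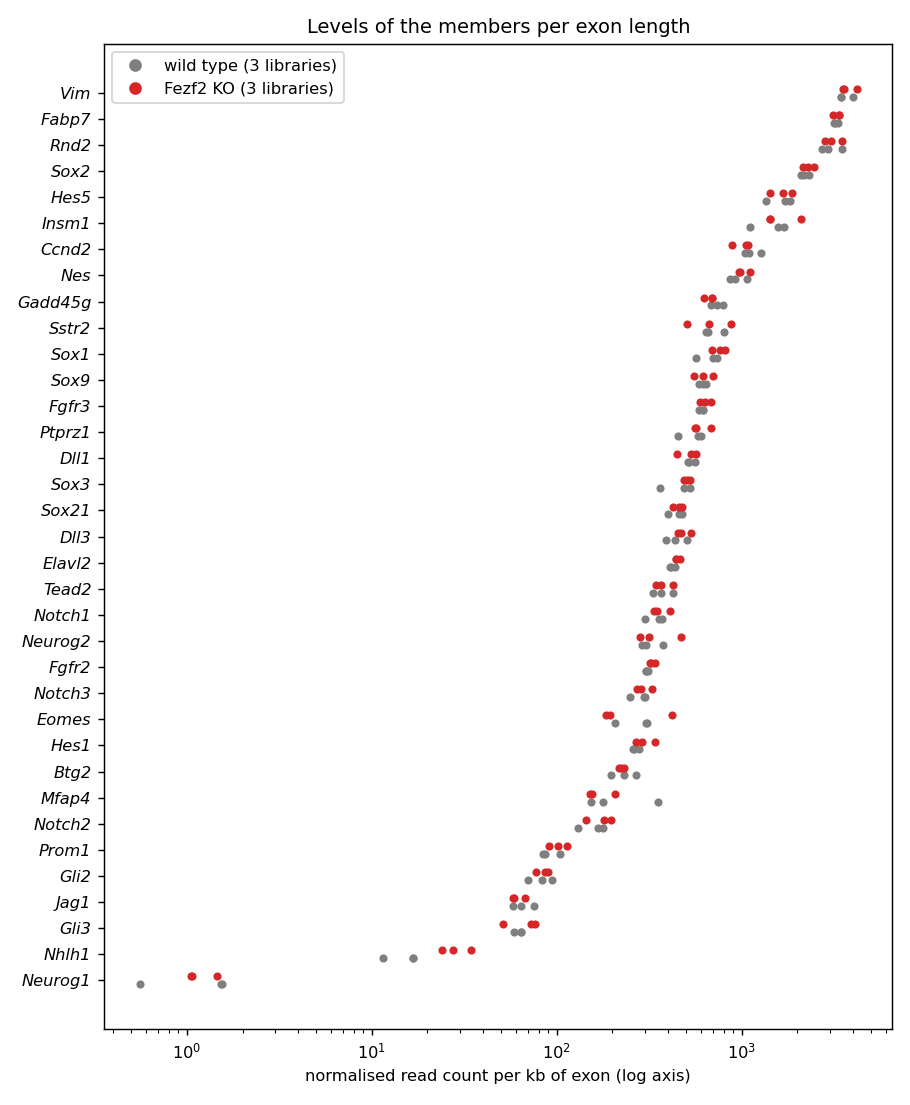
Normalised read count per kb of exon (log axis) for the 35 members, 1 point for each of 3 wild type (grey) and 3 Fezf2 KO (red) libraries, ordered by the wild type mean. Ranges of the genotypes overlap for most genes; those of Nhlh1, near the bottom, are separate.

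None of the 5 Sox factors, which regulate the progenitor state, passed the test. Sox1, a SoxB1 factor, had 3559, 3390 and 2721 normalised reads in wild type 1 to 3 and 3950, 3695 and 3325 in Fezf2 KO 1 to 3. The groups overlapped, and the log2 change was 0.19 (95% interval -0.06 to 0.43, limma adjusted p = 0.696). Sox3, the X-linked SoxB1 factor, had 1001, 1079 and 742 in wild type and 1087, 1002 and 1046 in Fezf2 KO cortex (log2 change 0.17, 95% interval -0.14 to 0.47). Wild type 3 was the low library for both genes. Sox2, the third SoxB1 factor, had 4513 ± 249 in wild type and 4737 ± 342 in Fezf2 KO cortex (SD, n = 3 each; log2 change 0.07, 95% interval -0.09 to 0.22). Sox9, which is needed for the switch to glia, had a change of 0.01 (95% interval -0.19 to 0.20), and Sox21, which opposes SoxB1 factors, had 0.03 (95% interval -0.16 to 0.22). Sox2ot, the noncoding gene in which Sox2 lies, had 482 in wild type 1 and 515 in Fezf2 KO 2 against 196 to 224 in the other 4 libraries, a split that did not follow genotype. The strand of the libraries is not given, so reads of Sox21, Notch1 and Neurog2 cannot be told from those of the assembled antisense transcripts listed beside them, which averaged 450, 349 and 68.8 in wild type.

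Ligands and receptors of the Notch pathway did not pass the test either. Dll3, a Delta-like protein that dampens Notch signalling within the cell, had 1319, 1146 and 1017 in wild type 1 to 3 and 1393, 1232 and 1185 in Fezf2 KO 1 to 3 (log2 change 0.13, 95% interval -0.11 to 0.38). Jag1, a ligand of the Jagged class, had 424, 360 and 327 in wild type and 378, 324 and 328 in Fezf2 KO cortex (log2 change -0.10, 95% interval -0.38 to 0.18). Dll1, the Delta ligand of newborn neurons and intermediate progenitors, had a change of -0.04 (95% interval -0.25 to 0.17). The genotypes overlapped for all 3 ligands.

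Among the receptors, Notch1 had 3374, 3524 and 2849 in wild type 1 to 3 and 3298, 3893 and 3172 in Fezf2 KO 1 to 3 (log2 change 0.09, 95% interval -0.14 to 0.32). Notch2 had 1879, 1762 and 1375 in wild type and 1897, 2068 and 1507 in Fezf2 KO cortex (log2 change 0.13, 95% interval -0.21 to 0.46). Replicate 3, the litter m2 library, was the lowest of its genotype for both receptors. Notch3, which blood vessel mural cells also express, had a change of 0.06 (95% interval -0.17 to 0.28).

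Hes1 and Hes5 read out Notch activity and repress proneural genes. Hes5 had 2176, 1729 and 2321 normalised reads in wild type 1 to 3 and 2140, 2390 and 1817 in Fezf2 KO 1 to 3, with the genotypes intermingled. Its log2 change was 0.03 (95% interval -0.27 to 0.33, limma adjusted p = 0.985), which bounds a difference at 1.26-fold higher and 0.829 of wild type. Hes1 had 386, 407 and 381 in wild type and 500, 422 and 396 in Fezf2 KO cortex (log2 change 0.16, 95% interval -0.08 to 0.41). Its highest value was that of Fezf2 KO 1, and Fezf2 KO 3 lay within the wild type range. The Hes5 promoter is shown because this gene is the textbook Notch target among the members. RefSeq gives, in GRCm38, the 250 bases before its start at chr4:154960673-154960922 on the plus strand, with matches to the Rbpj motif GTGGGAA, on either strand, in capitals:

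Hes5: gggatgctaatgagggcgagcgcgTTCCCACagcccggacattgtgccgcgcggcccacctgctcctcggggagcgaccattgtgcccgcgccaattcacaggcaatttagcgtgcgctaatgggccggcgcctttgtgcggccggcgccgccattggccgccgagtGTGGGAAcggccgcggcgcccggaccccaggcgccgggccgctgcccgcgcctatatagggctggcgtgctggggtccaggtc

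The 2 matches face opposite ways, begin 226 and 83 bases before the start and lie 136 bases apart. Promoters of 28 of the 35 members were matched by symbol, 36 windows in all; those of Hes1, Sox3, Sox9, Insm1, Ccnd2, Rnd2 and Mfap4 were not searched. Of the 28, Hes5 was the 1 member with this motif in its window, and 5.42% of all 32851 promoter windows of the same length held it. Such a match describes the letters only.

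Among the 5 structural and surface proteins of radial glia 0 passed, and all 5 changes were above 0. Fabp7 had 4025 ± 91.6 in wild type and 4082 ± 174 in Fezf2 KO cortex (SD, n = 3 each). Its log2 change was 0.02 with a 95% interval of -0.10 to 0.14, the narrowest among the 34. Prom1, the membrane protein prominin-1 of apical processes, had 504, 412 and 423 in wild type 1 to 3 and 556, 497 and 444 in Fezf2 KO 1 to 3 (log2 change 0.16, 95% interval -0.11 to 0.43). Ptprz1, a receptor tyrosine phosphatase of radial glia and oligodendrocyte precursors, had 6043, 5801 and 4534 in wild type and 5644, 6804 and 5584 in Fezf2 KO cortex (log2 change 0.14, 95% interval -0.13 to 0.42). In both genes the genotypes overlapped. Nes, the intermediate filament nestin, had a change of 0.10 (95% interval -0.10 to 0.30), and Vim had 0.05 (95% interval -0.14 to 0.24).

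Of the Fgf receptors, Gli factors and Tead2, 0 of 5 passed, and all 5 changes were above 0. Fgfr2, a receptor for fibroblast growth factors, had 1560, 1592 and 1553 in wild type 1 to 3 and 1658, 1748 and 1643 in Fezf2 KO 1 to 3. All Fezf2 KO values lay above all wild type values, but the difference was small, with a log2 change of 0.10 (95% interval -0.03 to 0.23, limma adjusted p = 0.691). Fgfr3, a receptor of medial and caudal cortex, had 2574, 2732 and 2716 in wild type and 2604, 3013 and 2788 in Fezf2 KO cortex (log2 change 0.07, 95% interval -0.09 to 0.22), with the groups overlapping. The hedgehog effectors Gli2 (0.04, 95% interval -0.24 to 0.32) and Gli3 (0.08, 95% interval -0.26 to 0.43), the latter mostly a repressor in dorsal forebrain, did not pass. Tead2, a DNA-binding partner of the Hippo effector Yap, had a change of 0.02 (95% interval -0.24 to 0.28).

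The transcription factors of intermediate progenitors varied widely between libraries, and they include the largest difference among the members. Nhlh1 encodes a basic helix-loop-helix factor of cells that have just left the cycle. It had 41.2, 41.0 and 28.4 normalised reads in wild type 1 to 3 and 84.4, 67.4 and 59.2 in Fezf2 KO 1 to 3, from 124 and 246 reads in all. The genotypes did not overlap, and the mean ratio was 1.91. The log2 change was 0.92 (SE 0.22, 95% interval 0.41 to 1.42), with a limma adjusted p of 0.151, so it did not pass. The adjusted p was 0.159 in edgeR, 0.117 in DESeq2 and 0.0896 in limma with litter as a block. Leaving out 1 library at a time gave changes of 0.75 to 1.03 and limma adjusted p of 0.245 to 0.361.

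The Nhlh1 promoter is shown because this gene had the largest change and the proneural factors, Neurog2 among them, bind E-boxes (CANNTG). RefSeq gives, in GRCm38, the 250 bases before its start at chr1:172057597-172057846 on the minus strand, with a match to the E-box CAGATG in capitals:

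Nhlh1: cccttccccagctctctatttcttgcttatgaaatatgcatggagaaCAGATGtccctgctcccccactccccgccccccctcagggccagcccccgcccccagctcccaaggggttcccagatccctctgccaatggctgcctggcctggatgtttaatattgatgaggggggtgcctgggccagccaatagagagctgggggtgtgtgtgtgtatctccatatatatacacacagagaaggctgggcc

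The window held 1 copy of CAGATG, which begins 203 bases before the start. CANNTG stood in 66.2% of all promoter windows of this length and in 15 of the 36 windows of members. CAGATG, a subset of it, read on either strand, stood in 14.4% of all windows and in 3 windows of members (Nhlh1, Fabp7 and Gli3).

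Insm1, a zinc finger factor that promotes the formation of basal progenitors, had 4850, 5230 and 3425 in wild type 1 to 3 and 6461, 4393 and 4394 in Fezf2 KO 1 to 3 (log2 change 0.17, 95% interval -0.26 to 0.61). Fezf2 KO 1 was above every other library, and Fezf2 KO 2 and 3 lay inside the wild type range. Eomes, the T-box factor Tbr2 that marks intermediate progenitors, was singled out, as were Neurog2, Mfap4 and Sstr2, after the values were seen. It had 1122, 1137 and 764 in wild type and 1544, 714 and 684 in Fezf2 KO cortex, so that the Fezf2 KO group held both the highest value and the lowest values. Its log2 change was -0.12 (95% interval -0.82 to 0.57). Neurog2, the proneural factor of dorsal progenitors, had 839, 678 and 640 in wild type and 1049, 704 and 627 in Fezf2 KO cortex (log2 change 0.12, 95% interval -0.32 to 0.55). Without Fezf2 KO 1 the log2 changes were -0.50 for Eomes (limma adjusted p = 0.428), -0.01 for Insm1, -0.10 for Neurog2 and 0.78 for Nhlh1 (limma adjusted p = 0.335). Neurog1, the other cortical Neurogenin, had 7 reads in all wild type libraries together and 7 in all Fezf2 KO libraries, at or under the 3 reads per library that a count of 0 allows, and was not tested.

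**Figure D3:**
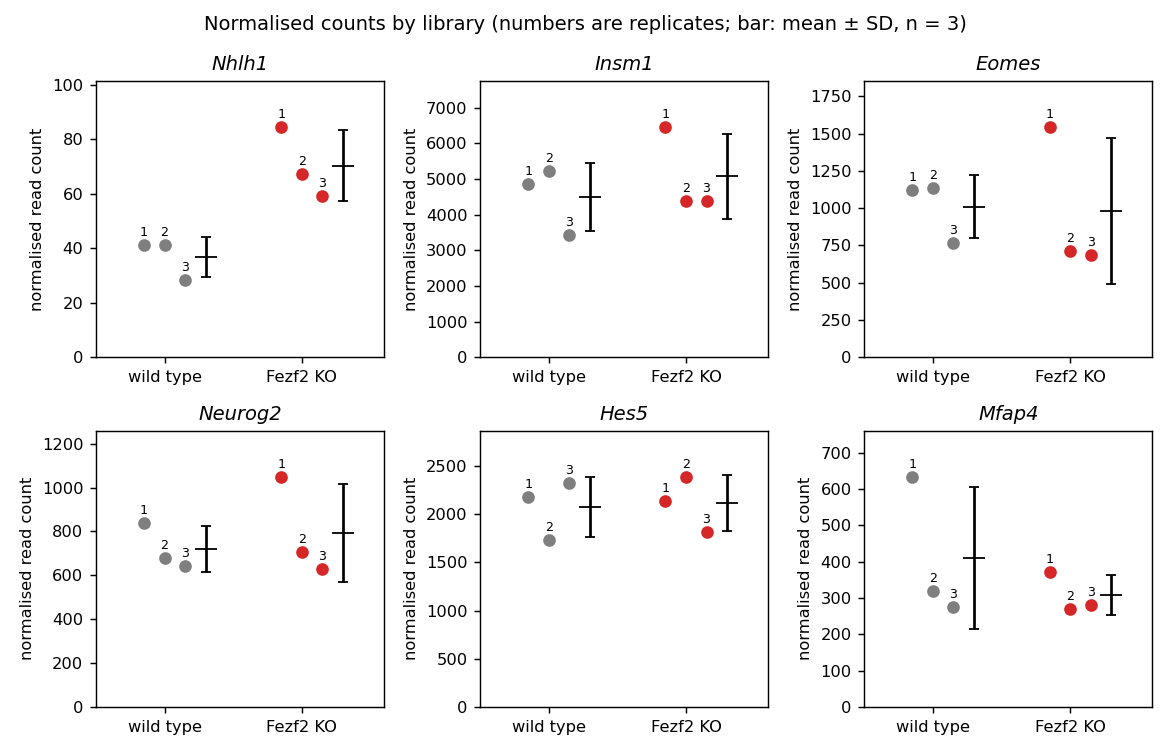
Normalised read counts of 6 members in each library (points, numbered by replicate) with the mean ± SD of 3 libraries (bars), wild type in grey and Fezf2 KO in red. Nhlh1 separates by genotype, whereas Insm1, Eomes and Neurog2 overlap and are highest in Fezf2 KO 1, Hes5 is intermingled and Mfap4 is high in wild type 1.

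Of 7 effectors of intermediate progenitors and young neurons 0 passed, with 2 changes above and 5 below 0. Ccnd2, the D-type cyclin of cortical progenitors, had 8575, 6975 and 7375 in wild type 1 to 3 and 7070, 7261 and 5956 in Fezf2 KO 1 to 3 (log2 change -0.18, 95% interval -0.40 to 0.05). Gadd45g, a growth arrest gene induced by proneural factors, had 791, 731 and 846 in wild type and 737, 741 and 669 in Fezf2 KO cortex (log2 change -0.14, 95% interval -0.34 to 0.06). In both genes the groups overlapped. Elavl2, a neuronal RNA-binding protein, had 2081, 1942 and 1977 in wild type and 2105, 2218 and 2090 in Fezf2 KO cortex, without overlap but with a log2 change of 0.10 (95% interval -0.04 to 0.23, limma adjusted p = 0.723). Sstr2, a somatostatin receptor, had a change of -0.07 (95% interval -0.48 to 0.35). Btg2, an antiproliferative gene switched on in neurogenic divisions, had -0.04 (95% interval -0.31 to 0.23), and Rnd2, which Neurog2 activates, had 0.03 (95% interval -0.21 to 0.27).

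Mfap4, a microfibril-associated protein of the extracellular matrix, had 633, 319 and 276 in wild type 1 to 3 and 370, 270 and 280 in Fezf2 KO 1 to 3 (log2 change -0.33, 95% interval -0.99 to 0.33). Its mean difference rested on wild type 1, and without that library the change was 0.03. Wild type 1 was also the library with the most meningeal transcripts. The 6 meningeal markers summed to 5027 there and to 714 to 1181 in the 5 other libraries, and Col1a2, a collagen of meningeal fibroblasts, had 2336 there and at most 297 elsewhere. The part of meningeal tissue in the Mfap4 value was not tested.

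Fezf2 KO 1 held the highest value of 14 of the 34 members, and Fezf2 KO 2 that of 11, counts that were not made over all genes tested. On a scale of log2 values centred on the mean of the 6 libraries, the 4 tested transcription factors of intermediate progenitors averaged 0.60 in Fezf2 KO 1. They averaged -0.04 and -0.15 in Fezf2 KO 2 and 3 and 0.04, -0.002 and -0.45 in wild type 1 to 3. Of the other role groups in Fezf2 KO 1, the Hes effectors averaged 0.16 and the structural and surface proteins 0.12. The Fgf receptors, Gli factors and Tead2 averaged 0.09 there and the effectors of intermediate progenitors and young neurons 0.08. The Sox factors averaged 0.03, the Notch ligands 0.03 and the Notch receptors 0.01. Sstr2 was highest in the same library, with 1875 against 1086 to 1711 in the others.

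Markers of other cells also stood apart in Fezf2 KO 1. Markers of choroid plexus and ependyma summed to 10310 there and to 1014 to 1238 in the other 5 libraries. Ttr, which encodes the transthyretin of choroid plexus, had 8950 there and made up most of that sum. It had 65.6 and 68.0 in Fezf2 KO 2 and 3 and 9.45 to 15.7 in wild type. Folr1 (283 against at most 15.9), Clic6 (227 against at most 28.8) and Otx2 (34.1 against at most 6.98) were also highest there. Kl (19.5) lay beside wild type 2 (19.2) and 3 (18.9), and Kcnj13 (8.93) was below wild type 1 (13.1). Foxj1, a regulator of ciliated ependymal cells, was at its lowest there (788). It had 898 and 950 in Fezf2 KO 2 and 3 and 1013 to 1152 in wild type. Without overlap, Ttr was higher and Foxj1 lower in Fezf2 KO cortex (7.6% and 6.85% of all genes tested were). Neither passed in limma (adjusted p = 0.401 for Ttr and 0.322 for Foxj1). None of the 7 markers was at 0 in all libraries. The centred mean of the 5 that were tested was 2.80 in Fezf2 KO 1, that of the 16 genes of proliferating cells was 0.24, and that of the 13 striatal genes was -1.29. Striatal genes summed to 13685 to 17831 in wild type and to 5822, 11763 and 7216 in Fezf2 KO 1 to 3. Ppp1r1b had the largest values of the list in every library. It stood at 6715, 6407 and 5718 in wild type 1 to 3 and at 2178, 3219 and 2244 in Fezf2 KO 1 to 3. The centred mean of the 13 was 0.29 in Fezf2 KO 2, near the 0.33 of wild type 3, and -0.63 in Fezf2 KO 3. Of 13, 12 were on the lower side and 1, Ppp1r1b, passed the test (log2 change -1.32, limma adjusted p = 0.00594). An unadjusted p under 0.05 in limma was reached by 11 (9.03% of all genes tested did), and 7 were lower without overlap (6.85% of all genes tested were). The part of choroid plexus and striatal tissue in the values of Eomes, Insm1, Neurog2 and Nhlh1 was not tested. Without Fezf2 KO 1 and wild type 1 together, an alternative chosen after the values were seen, 0 members passed in limma and Nhlh1 had a log2 change of 0.87 (limma adjusted p = 0.395).

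**Figure D4:**
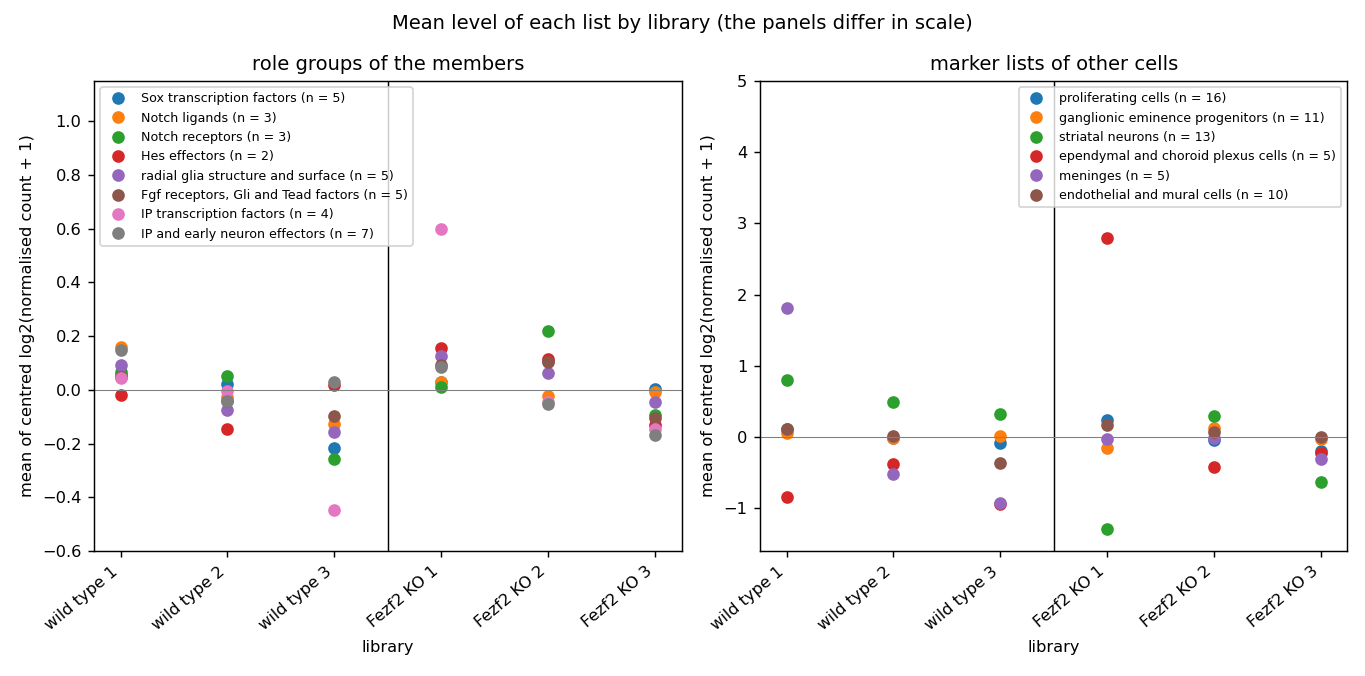
Mean of centred log2(normalised count + 1) of each role group of the members (left) and of 6 marker lists of other cells (right) in each library; the vertical line divides wild type from Fezf2 KO and the panels differ in scale. The intermediate progenitor factors are highest (0.60) in Fezf2 KO 1, where the choroid plexus and ependymal list is at 2.80 and the striatal list at -1.29.

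Most members were lower in litter m2, a comparison added after the values were seen. With genotype and litter as terms in limma, 29 of the 34 members were lower in litter m2 than in m1, as were 47.6% of all genes tested. The median log2 difference between the litters was -0.17 for the members and 0.01 for all genes tested. In 16 members the m2 library was the lowest of its genotype in both genotypes, a pattern that was not counted over all genes tested. At an unadjusted p under 0.05 the litter term had 9 members and 9.96% of all genes tested. At an adjusted p under 0.05 it had 0 members and 0% of all genes tested. Litter m2 rests on 1 library of each genotype, and the members are not independent of one another.

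Notch2, Sox1 and Insm1 are examples with intervals below 0. Notch2 had a litter difference of -0.40 (95% interval -0.55 to -0.25), Sox1 had -0.28 (95% interval -0.42 to -0.13) and Insm1 had -0.42 (95% interval -0.77 to -0.07). The 5 members that were not lower in litter m2 were Btg2 (0.16), Rnd2 (0.13), Dll1 (0.08), Fgfr3 (0.01) and Gadd45g (0.01). In the list of proliferating cells, 15 of 16 genes were lower in litter m2, with a median of -0.19, and 4 had an unadjusted p under 0.05. In 7 of the 16 the m2 library was the lowest of its genotype in both genotypes, again without a count over all genes tested. Mki67, the proliferation antigen Ki-67, was one of these, with 468 and 395 in wild type 1 and 2, 460 and 393 in Fezf2 KO 1 and 2, and 289 and 298 in wild type 3 and Fezf2 KO 3. Pcna, a clamp of the replication fork, was not, with 2556 in wild type 3 as its highest value.

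**Figure D5:**
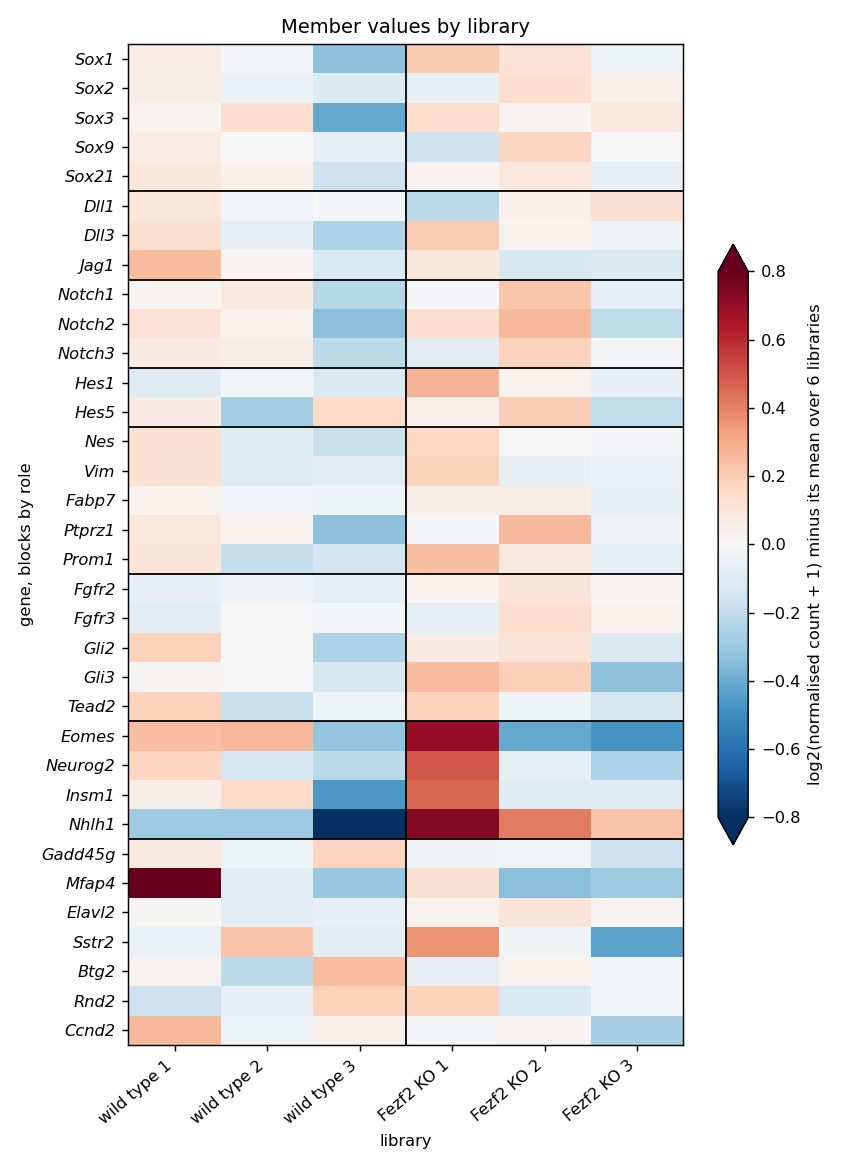
Log2(normalised count + 1) of the 34 members tested, minus each gene's mean over 6 libraries, by library (columns) and role (blocks); red is higher and blue lower, and the colour scale stops at 0.8 either way. Wild type 3 is the lowest library for 15 members, a count that was not made over all genes tested. Fezf2 KO 1 is red for Eomes, Neurog2, Insm1 and Nhlh1, and wild type 1 is dark for Mfap4.

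Other genes of the same pathways were read from 8 lists with 118 genes in all, of which 114 were tested. None passed by limma or edgeR, and 20 had an unadjusted p under 0.05 in limma (9.03% of all genes tested did). DESeq2 called 6 (Lifr, Cdon, Gas1, Lats2, Etv1 and Etv5), where it called 2.3% of all genes tested. In 21 of the 114 the genotypes did not overlap. Over all genes tested, 7.6% were higher and 6.85% lower in Fezf2 KO cortex without overlap. The median log2 change of the 114 was 0.03. Other radial glia genes held 0 of 21 past the test. Pax6, the master regulator of dorsal progenitors, had 835, 842 and 863 in wild type 1 to 3 and 897, 858 and 846 in Fezf2 KO 1 to 3 (log2 change 0.03, 95% interval -0.12 to 0.19). Lifr, the receptor for leukemia inhibitory factor, had 476, 494 and 506 in wild type and 649, 635 and 624 in Fezf2 KO cortex, without overlap (log2 change 0.37, 95% interval 0.20 to 0.54, limma adjusted p = 0.0866). Hopx, a marker of outer radial glia and later of astrocyte-generating cells, had a change of 0.32 (95% interval 0.08 to 0.56, limma adjusted p = 0.334).

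The other pathway lists gave 0 calls in limma as well. Of 28 other Notch pathway genes, the coactivator genes Maml1 (log2 change 0.16, limma adjusted p = 0.458) and Maml3 (0.23, limma adjusted p = 0.491) had the smallest p. Of 10 tested genes of intermediate progenitors, Unc5d, a netrin receptor of multipolar cells, had 0.21 (limma adjusted p = 0.568) and Neurod1, a proneural target, had -0.17 (limma adjusted p = 0.610). Among 11 hedgehog genes the coreceptor genes Cdon (0.41, limma adjusted p = 0.222) and Gas1 (0.58, limma adjusted p = 0.293) were on the higher side. Of the 7 tested Sox genes outside the 5 members, Sox6 had 0.27 (limma adjusted p = 0.427), and of 10 D cyclin, Btg and Tob genes Tob1, an antiproliferative gene, had 0.16 (limma adjusted p = 0.726).

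Fgf pathway genes lay on both sides. Etv1 and Etv5, Ets factors induced by Fgf signalling, had log2 changes of -0.49 (limma adjusted p = 0.108) and -0.24 (limma adjusted p = 0.167), while the feedback inhibitors Spry2 and Dusp6 both had 0.27 (limma adjusted p = 0.331 and 0.260). Etv1 also marks layer 5 neurons. Of 16 tested, 7 had an unadjusted p under 0.05 (9.03% of all genes tested did). Without overlap, 4 were higher and 2 lower in Fezf2 KO cortex (7.6% and 6.85% of all genes tested were). Among 13 Hippo genes the kinase gene Lats2 had 0.29 (limma adjusted p = 0.110) and Vgll4, which encodes a Tead cofactor that competes with Yap, had 0.22 (limma adjusted p = 0.471).

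Markers of dividing cells and of ventral progenitors were read beside the members. Of 16 genes of proliferating cells 0 passed in limma and 0 had an unadjusted p under 0.05, with a median log2 change of -0.01, and they summed to 13265 to 14282 in wild type and to 12450 to 15757 in Fezf2 KO libraries. Of 11 entries for progenitors of the ganglionic eminences, the ventral source of interneurons, 0 passed in limma (Dlx1 has 2 entries). Of these, 2 had an unadjusted p under 0.05 (9.03% of all genes tested did). The median log2 change was 0.00, with 6 changes above 0 and 5 below. Without overlap, 2 were higher and 0 lower in Fezf2 KO cortex (7.6% and 6.85% of all genes tested were). Dlx2, a homeobox factor of these progenitors, was 1 of the 2 (log2 change 0.18, limma adjusted p = 0.244). The largest changes in the list were on the lower side, Dlx6 with -0.40 and Nkx2-1 with -0.39, and both overlapped. Lists of oligodendrocyte lineage cells (median log2 change 0.19), astrocytes (-0.25), endothelial and mural cells (0.16), Cajal-Retzius cells (0.03), meninges (-0.39) and cortical neurons (0.08) each held 0 genes past the test in limma. In that order, 2 of 8, 2 of 8, 2 of 10, 0 of 5, 0 of 5 and 1 of 7 had an unadjusted p under 0.05 (9.03% of all genes tested did). Without overlap, 3 oligodendrocyte lineage genes and 3 endothelial and mural genes were higher in Fezf2 KO cortex (7.6% of all genes tested were). On the lower side were 2 astrocyte genes and 1 cortical neuron gene (6.85% of all genes tested were). DESeq2 called 1 oligodendrocyte lineage gene (2.3% of all genes tested).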

How the data were processed

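Total RNA libraries from 6 brains (3 wild type, 3 Fezf2 KO) were analysed. Per the submitters' processing notes, Bowtie, STAR, DESeq and the build mm9 were used, with versions and settings not given in the sources used here. The deposited signal is read counts per entry divided by 1 size factor per library. In each library 100% of values were whole multiples of 1 step within 0.006, which gave back whole reads. No value is scaled to gene length.

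Genes that reached 10 in 3 or more libraries entered limma on log2(value + 1), genotype as the single term and a trended variance, with Benjamini-Hochberg adjustment over 17557 genes and a threshold of 0.05. Intervals are limma's 95% intervals. P-values measure the spread between single pups. edgeR and DESeq2 were run on the recovered reads; edgeR called 121 genes and limma 125. The limma and edgeR steps were also run on simulated counts that held genotype changes alone, without litter or tissue differences. Statistics ran in R 4.3.3 with DESeq2 1.42.0, limma 3.58.1 and edgeR 4.0.16, and tables in pandas 2.3.3.

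The members and lists were chosen with earlier results of these data known. All members are named; values by library are given for members without overlap and for the 2 of each role group with the smallest p. In the other pathway lists and the ganglionic eminence and striatal lists, the 1 or 2 genes with the smallest p are named. Library values of Gadd45g, Eomes, Neurog2, Mfap4, Sstr2 and Ppp1r1b, and means of Sox2 and Fabp7, were added after values were seen. So were Bcl11b, Pax6, Mki67, Pcna, Spry2, Dusp6, Col1a2, Dlx6, Nkx2-1, the choroid plexus and ependymal genes, Sox2ot and the antisense transcripts. Alternatives were another pseudocount, no filter, edgeR with TMM or RLE factors, DESeq2, litter as a block, litter m1 alone, and each library left out. The litter comes from the labels; replicate numbers follow accession order and pair nothing. Exon lengths were unions of GENCODE M21 exons (GRCm38), matched by symbol for all 35 members.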

Additional observations from a re-analysis of the deposited data

How the results depend on the processing

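Under all 14 alternatives 0 members passed the test; the lowest adjusted p of a member in any of them was 0.0896, for Nhlh1 with litter as a replicate block. The block changed no call among the members and moved the count over all genes from 125 to 138. That count was 403 with DESeq2, 29 in litter m1 alone, 61 to 119 when 1 library was left out, and 57 without wild type 1 and Fezf2 KO 1 together (chosen after the data were seen); fewer libraries alone can lower it. DESeq2 called 6 of the 114 tested pathway genes (2.3% of all genes tested) where limma called 0. The log2 change crossed 0 in at least 1 alternative for 18 of 34 members, none of which passed. No such share is given for all genes tested. Mfap4 (-0.33) had the largest change of the 18, and the farthest value past 0 was 0.131 (Sstr2 without Fezf2 KO 3). Depth limits Nhlh1 (124 and 246 reads) and Neurog1 (7 and 7 reads). The floor of 3 reads covers counting error only.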
